A study of Mus musculus and Homo sapiens with 18 samples.

Results

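Catalytically inactive Cas9 (dCas9) carrying an HA tag was immunoprecipitated from mouse embryonic stem (ES) cells that had received the guide RNA Nanog-sg3, and 2 libraries of this experiment were compared here. They are 2 of the 18 samples of the series, and were chosen by their labels: both came from V6.5 cells carrying dCas9 as a stable integrant (strain C57BL/6-129), and both received 20 ug of Nanog-sg3 by lipid transfection before precipitation with an anti-HA antibody. Library 1 is the sample titled for the guide alone, and library 2 the one titled for 20 ug. Library 1 had a list of 5957 peaks and library 2 a list of 5862 (mean 5909.5 ± 67.2, SD, n = 2). Nothing in the labels tells whether separate cultures were used, so differences between them may be technical. Other lists appear here only for reference: Nanog-sg3 at 2, 0.2 and 0.02 ug in the same stable line, Nanog-sg3 and dCas9 plasmids at 20 ug each in wild-type V6.5 cells (the transient library) with its input, and Nanog-sg2, Phc1-sg1 and Phc1-sg2 at 20 ug in the stable line. Read depth is unknown, because the lists give positions and scores but no read counts. No expression was measured, so the ES cell identity given by the labels could not be checked.

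dCas9 binds DNA where its guide RNA pairs with one strand next to a short protospacer-adjacent motif, and it does not cut. Pairing next to that motif, in the seed of the guide, comes first, so a protein loaded with a single guide can be held at many places besides the intended gene. A ChIP-seq peak is a stretch of the genome where fragments pulled down with the tag are in excess, and its width depends on fragment length, on binding and on how calls are merged. Nanog, the gene the guide was made for, codes for a homeodomain transcription factor that helps keep ES cells pluripotent.

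Peaks that recurred were well aligned. A peak was called recurring when it had at least 1 bp in common with a peak of the other library. By this rule 3653 of the 5957 peaks of library 1 recurred (61.3%, 95% interval 60.1 to 62.6% by the exact Clopper-Pearson method), and 3646 of the 5862 of library 2 (62.2%, 60.9 to 63.4%). Intervals on shares cover counting error only, and no test over samples was possible with 1 group of 2 libraries. Peaks of guides to another gene rarely touched these lists: 6 of the 2948 Phc1-sg1 peaks (0.204%) touched library 1 and 14 (0.475%) touched library 2. For Phc1-sg2 it was 1 of 663 (0.151%) and 2 of 663 (0.302%). The control and any filter behind these lists are not described, so these shares are no chance level for recurrence. The transient input list held 3 peaks, and none touched a peak of either library.

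Most contacts were one to one. In library 1, 3641 peaks touched exactly 1 peak of the other library and 12 touched 2; in library 2 these counts were 3627 and 19. Among the 3607 one-to-one pairs the centres lay a median of 83.5 bp apart (quartiles 38.5 and 150.5 bp), and 83.8% were within 200 bp. The common part covered a median of 100% of the narrower peak and 79.5% of the wider one. Within pairs the widths were close: the median ratio of library 2 over library 1 was 0.998, with quartiles of 0.831 and 1.19. Across the 3607 pairs the log widths had a Pearson r of 0.71 and the widths a Spearman rho of 0.69; the points share 2 libraries, and both values are descriptions. The recurring peaks thus had nearly the same median width in the 2 lists, 949 bp in library 1 and 950.5 bp in library 2.

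The 3 positions with the strongest lower score of the pair show this alignment. The score is the authors' own, its column has no name, and higher values rank a peak higher in its list. At chr11:119055128-119056510 (mm9) library 1 had a 1383 bp peak scoring 2376.58, and library 2 a 1313 bp peak scoring 2173.77, rank 1 in each list. At chr1:189138427-189139506 the widths were 1080 and 1361 bp and the scores 1562.29 and 1305.14, rank 4 in each. At chr8:11757548-11758950 the widths were 1403 and 1356 bp and the scores 1206.98 and 1263.68, ranks 8 and 5. The 2 ug and transient lists also had a peak at each of these 3 positions.

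Peaks that did not recur differed in width between the libraries. In library 1 the 2304 peaks found there alone had a median width of 710 bp (quartiles 549.75 and 921.25 bp), below the 949 bp of the recurring ones. In library 2 the 2216 peaks found there alone had a median of 938 bp (684.75 and 1288 bp), close to the 950.5 bp of the recurring ones. Median scores were lower for peaks found alone in both lists, at 81.4 against 142.88 in library 1 and 100.885 against 161.055 in library 2. The whole lists differed little in width, with medians of 859 and 946 bp, a narrowest peak of 239 and 301 bp and a widest of 6161 and 6762 bp.

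Recurrence was more frequent among wider peaks in library 1. In library 2 the narrowest and the widest peaks recurred at similar shares, somewhat below those of the widths between. Each list was divided by width into 4 groups of equal size. From the narrowest to the widest group of library 1, 37.4%, 56.5%, 71.9% and 79.4% of peaks recurred, a difference between the ends of 42.0 percentage points (Newcombe 95% interval 38.7 to 45.1). The library 2 shares were 57.8%, 65.1%, 65.6% and 60.3%, and the difference was 2.50 points (-1.06 to 6.05). The narrowest group held peaks of up to 654 bp in library 1 and 716 bp in library 2, and the widest began at 1097 and 1254 bp. A wide peak can touch another more easily, so the share was also counted for centres within 200 bp. The difference was then 22.1 points in library 1 and -15.6 points in library 2. This rule leans the other way, because wide peaks can overlap with their centres farther apart. With 50% of both peaks shared the difference was 38.2 points in library 1 and -2.49 points (-6.09 to 1.12) in library 2.

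**Figure D1:**
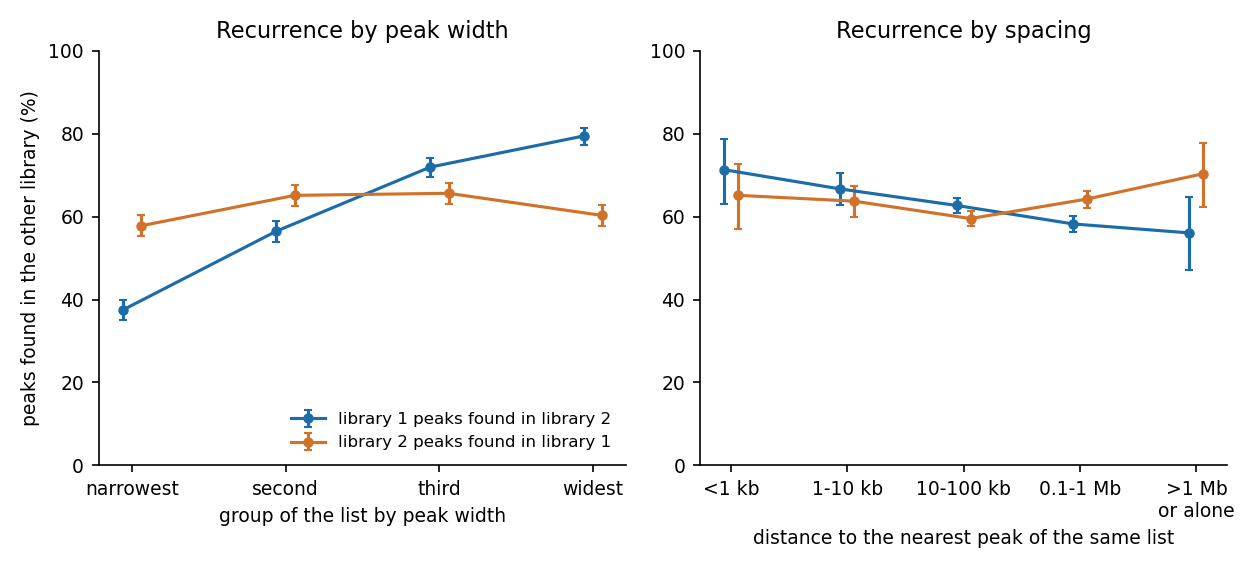
Share of peaks found in the other library (y axis, %) by group of peak width (left) and by distance to the nearest peak of the same list (right). Points are shares and bars exact 95% binomial intervals; library 1 climbs from 37.4% to 79.4% with width, and library 2 stays between 57.8% and 65.6%.

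Width goes with score (Spearman rho across peaks 0.27 in library 1 and 0.30 in library 2, as descriptions), so each list was also divided by score into 4 equal groups, and the width groups formed within these. In the lowest score group of library 1, 12.6% of the narrowest peaks recurred (47 of 373) and 58.3% of the widest (217 of 372). In its highest score group these shares were 92.0% (343 of 373) and 94.4% (351 of 372). Width thus separated the weakly scored peaks of library 1 and hardly the strongly scored ones. At high scores the pattern of library 2 ran the other way. Its highest score group went from 91.6% of the narrowest (336 of 367) to 71.3% of the widest (261 of 366), with intervals of 88.2 to 94.2% and 66.4 to 75.9%. Without chromosomes 16 to 19, left out after seeing the data, these shares were 92.0% (289 of 314) and 74.4% (233 of 313). In its lowest score group the 4 width groups lay between 33.1% and 42.8%. Averaged over the 4 score groups, the widest minus the narrowest width group was 27.3 points in library 1 and -11.5 points in library 2, and 25.8 and -10.2 points without chromosomes 16 to 19.

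**Figure D2:**
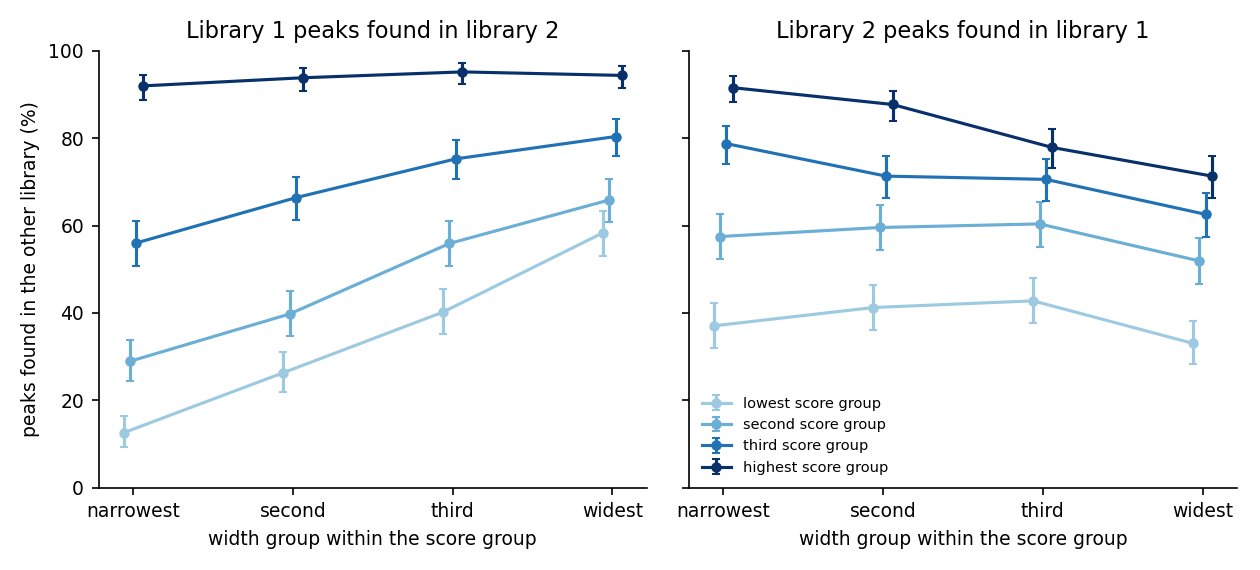
Share of peaks found in the other library (y axis, %) by width group within each score group (one line each), for library 1 (left) and library 2 (right), with exact 95% binomial intervals. In the highest score group library 1 stays between 92.0% and 95.2%, while library 2 goes from 91.6% down to 71.3%.

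Peaks that were both strong and wide recurred at different rates in the 2 lists. Of the 545 peaks in the top group of library 1 by score and by width, 519 recurred (95.2%, 93.1 to 96.9%), leaving 26. Of the 548 such peaks in library 2, 401 recurred (73.2%, 69.3 to 76.8%), leaving 147. Strong and narrow peaks recurred alike in the 2 lists, at 154 of 170 (90.6%) in library 1 and 157 of 173 (90.8%) in library 2. Of the 147 strong and wide peaks found in library 2 alone, 132 had a peak in the transient library and 70 at 2 ug. For the 26 of library 1 these counts were 15 and 3. Of all peaks in the widest group, 89.8% in library 2 and 86.7% in library 1 had a transient peak. At 2 ug these shares were 50.7% and 49.0%. The counts of library 2 lay near these shares, and those of library 1 below them. The score that sets the strong groups was higher in library 2 than in library 1 for pairs on chromosomes 16 to 19 (median log2 ratio 0.62, against 0.09 on the others). Without those chromosomes, a choice made after seeing the data, 94.9% of strong and wide peaks recurred in library 1 (470 of 495) and 74.4% in library 2 (332 of 446).

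The same asymmetry held for all peaks found in 1 library. Of all library 1 and library 2 peaks, 73.3% and 78.7% touched a transient peak and 25.2% and 30.5% a 2 ug peak. Among peaks found in library 1 alone, 82 of 2304 had a 2 ug peak (3.56%, 2.84 to 4.40%), and among those of library 2 alone 367 of 2216 (16.6%, 15.0 to 18.2%). In the widest group the shares at 2 ug were 11.8% for library 1 alone (36 of 306) and 35.7% for library 2 alone (208 of 582), with intervals of 8.38 to 15.9% and 31.8 to 39.8%. In the narrowest group they were 1.18% (11 of 932) and 2.26% (14 of 619). The transient library held 62.7% of the widest peaks of library 1 alone (192 of 306) and 82.8% of those of library 2 alone (482 of 582). Peaks found in both libraries, which are the same positions counted from either list, were found at 2 ug in 38.9% and 39.0%. Both the 2 ug and the transient list have the sixth column of whole numbers that the list of library 2 has and that of library 1 lacks. The list of library 2 is also named as filtered, and that of library 1 is not. Preparation of the lists and the libraries themselves therefore cannot be told apart.

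**Figure D3:**
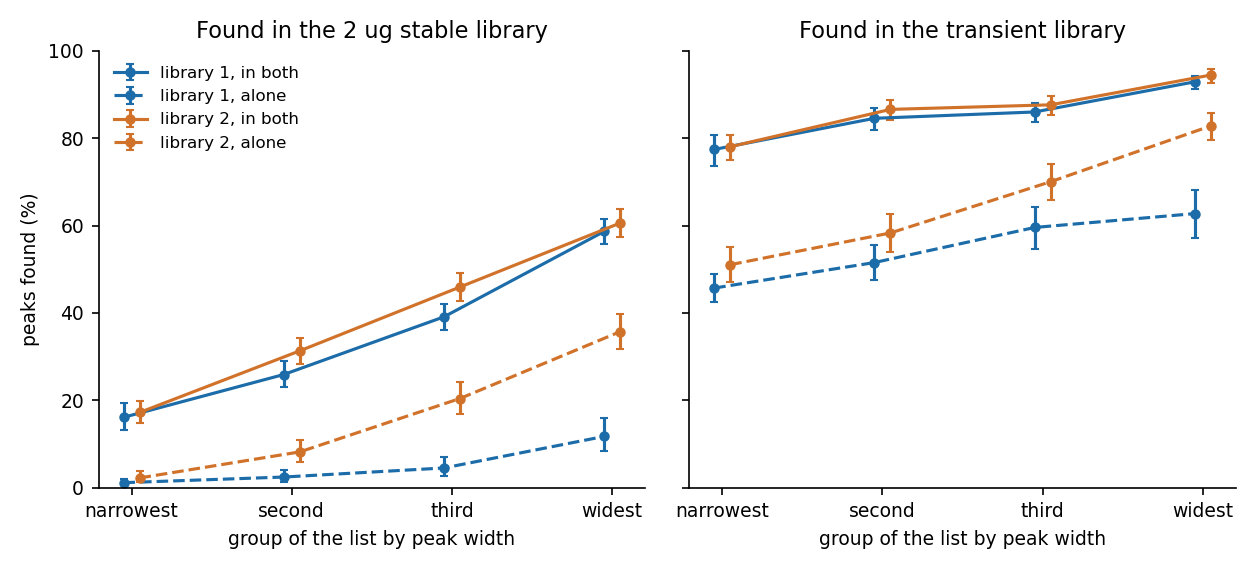
Share of library 1 and library 2 peaks with a peak in the 2 ug stable library (left) or the transient library (right), y axis in %, by width group. Solid lines are peaks found in both 20 ug libraries, dashed lines peaks found in 1 of them, bars exact 95% intervals; the dashed line of library 2 lies above that of library 1 in each group, and reaches 35.7% against 11.8% at 2 ug.

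Peaks found in 1 library stood mostly far from any peak of the other, so few were near misses. Their median distance to the nearest peak of the other list was 91.5 kb in library 1 and 71.7 kb in library 2. Within 500 bp of the other list lay 22 of the 2304 (0.955%) and 26 of the 2216 (1.17%), and within 10 kb 10.6% and 13.4%. The farthest in library 1 were both on the X chromosome, at chrX:60508514-60508975 (462 bp, score 53.59) and chrX:124080752-124081320 (569 bp, score 54.67), 6798.8 and 6749.3 kb from any library 2 peak. In library 2 they were chrX:153930121-153931127 (1007 bp, score 187.19) and chr3:73238317-73238855 (539 bp, score 119.90), 3663.1 and 3525.9 kb away. Both peaks of library 2 had a peak in the transient library, and so did the first of library 1.

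The strongest peak found in 1 library alone was the one at Nanog. It lay at chr6:122655719-122658343, was 2625 bp wide and scored 1472.86, rank 5 of 5957 in library 1, and it is the 1 position that this list shared with Nanog-sg2 at 20 ug, which is why it is taken as the Nanog site. The 2 ug, 0.2 ug, 0.02 ug and transient lists had no peak touching it, as library 2 had none, so of these 6 Nanog-sg3 lists library 1 alone held it. The list of library 2 is named as filtered, with no filter described, and depth is unknown. A peak missing from a list therefore cannot be read as absent binding. Whether preparation of the lists added or removed the Nanog peak was not tested. The nearest transient peak lay 2.43 kb away, at chr6:122652373-122653284 (score 139.92). In library 2 the nearest listed peak was 111.8 kb away, at chr6:122770109-122771065 (score 132.27). The nearest other peak of library 1 was at 96.5 kb, at chr6:122557532-122559234 (score 160.66). In the list of library 1 the Nanog peak stands on the first line, ahead of chromosome 10, and apart from the other peaks of chromosome 6. Text order was broken at 277 lines of that list, so the Nanog line was not the only break. The list of library 2 opens with chromosome 1 and is in plain text order throughout.

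After Nanog, the next strongest peaks of library 1 alone scored far lower. They were chr1:155032546-155034159 (579.97, rank 90), chr8:11554579-11556514 (571.94, rank 93), chr1:134096209-134100103 (566.52, rank 101) and chr1:173433118-173434913 (437.85, rank 213). The second was 9.37 kb from a library 2 peak, and the 2 ug and transient lists held it too. At 3895 bp, chr1:134096209-134100103 was the second widest peak of library 1 alone, and it had peaks at 2 ug, at 0.2 ug and in the transient library. Of these 4 peaks, 1 was in neither the 2 ug nor the transient list, the one at chr1:173433118-173434913.

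The strongest peak found in library 2 alone was chr19:46577764-46581316, 3553 bp wide and scoring 898.49 (rank 21). Another library 2 peak lay 2.70 kb from it and the nearest library 1 peak 2.73 kb. The others were a 1236 bp peak on chromosome 18 (582.79), chr7:134620855-134622915 (574.10), chr17:47874428-47877820 (563.46) and chr3:88968042-88969797 (530.64). Those on chromosomes 19, 17 and 3 had peaks at 2 ug and in the transient library, and the chromosome 7 peak in neither. Of these 5 peaks, 3 lay on chromosomes 17 to 19, which hold 654 of the 5862 peaks of library 2 (11.2%). The 5 were picked by score, and on these chromosomes paired peaks scored higher in library 2 than in library 1, by a median log2 ratio of 0.72.

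Among wide peaks, recurrence did not require similar extents. The widest recurring peak of library 1, chr17:36000869-36007029 (6161 bp), was nearly the same in library 2 (6094 bp), but it scored 85.82 in the first and 650.95 in the second. The next, chr7:20331134-20337057 (5924 bp), met a peak of 2052 bp. In library 2 the widest recurring peak, chr10:79609359-79616120 (6762 bp), met a library 1 peak of 1209 bp, and chr6:30120044-30126652 (6609 bp) met one of 4510 bp. The widest peaks without a partner were chr15:76016457-76020769 (4313 bp, score 106.68) in library 1, and chr8:87499111-87505265 (6155 bp, 436.31) and chr1:88397258-88403156 (5899 bp, 73.98) in library 2. The last of these ended 148 bp short of a library 1 peak. Splitting was rare: the highest-scoring of the 12 peaks of library 1 that met 2 of library 2 was chr9:56920309-56922650 (score 494.39), and of the 19 of library 2 it was chr12:83269684-83272199 (779.94).

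The difference in recurrence between closely spaced and isolated peaks had opposite signs in the libraries. In library 1 it was smaller than the difference by width, and in library 2 its interval excluded 0 where that by width did not. The median distance to the nearest peak of the same list, from edge to edge, was 76.4 kb in library 1 and 67.9 kb in library 2. In library 1, 66.9% of the most closely spaced of 4 equal groups recurred (997 of 1490, gaps of up to 25.7 kb) and 56.2% of the most isolated (837 of 1489), a difference of 10.7 points (7.21 to 14.2). For library 2 these shares were 61.9% (907 of 1466) and 66.2% (970 of 1465), a difference of -4.34 points (-7.80 to -0.868). By distance, library 1 went from 71.3% under 1 kb (97 of 136) to 56.1% over 1 Mb or alone on the chromosome (74 of 132), and library 2 from 65.1% (99 of 152) to 70.3% (102 of 145). Library 2 did not rise steadily, as the distances between gave 63.7%, 59.5% and 64.2%, and the intervals of its ends overlapped.

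Closely spaced peaks were also wider. The median width was 962 bp in the closest group and 745 bp in the most isolated in library 1, and 1024 and 819 bp in library 2. Within groups of like width the spacing difference of library 1 averaged 0.10 points, so it was nearly absent there. For library 2 it averaged -3.11 points, but its sign was not the same in each width group. From the narrowest to the widest group, 55.0%, 61.3%, 63.8% and 66.8% of the closest library 2 peaks recurred. For its most isolated peaks the shares were 64.5%, 71.6%, 65.6% and 57.7%. The division within width groups was chosen after seeing the data. With centres within 200 bp the spacing difference of library 1 was 2.11 points (-1.47 to 5.70), an interval that includes 0.

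Neighbouring peaks were counted by whether both, 1 or neither recurred. Of the 69 pairs of neighbours under 1 kb apart in library 1, both members recurred in 38, 1 member in 22 and neither in 9. In library 2 the 77 such pairs gave 33, 34 and 10. Both members could touch the same peak of the other library, and such pairs were not counted apart. In all, 19 library 2 peaks touched 2 of library 1, and 12 library 1 peaks touched 2 of library 2. Under 1 kb, 1 member alone recurred in 31.9% of library 1 pairs and 44.2% of library 2 pairs. At gaps of 100 kb or more these shares were 48.7% and 47.4%. At those wide gaps, 35.0% of library 1 pairs and 39.4% of library 2 pairs had both members recurring. Runs of peaks with gaps under 10 kb were short: the longest held 4 peaks in each list. The run in library 1, chr7:5004508-5019429, had 3 of its 4 peaks recurring, and the one in library 2, chr19:6389655-6408910, also 3 of 4. The span of the first held 2 peaks of library 2, so its 3 recurring peaks need not have separate partners. That of the second held 3 peaks of library 1. Library 1 had 2 runs of this length and library 2 had 6.

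Recurrence on most chromosomes lay within counting error of the share of the whole list. Over the 20 chromosomes with at least 100 peaks in each list, the share ran from 53.4% on chromosome 3 to 73.5% on chromosome 17 in library 1, and from 54.4% on X to 66.5% on chromosome 12 in library 2. The interval of a chromosome held the share of the whole list for 18 of 20 in library 1 and 19 of 20 in library 2. The exceptions were chromosome 17 above (180 of 245, 67.5 to 78.9%) and chromosome 3 below (151 of 283, 47.4 to 59.3%) in library 1, and chromosome 5 below in library 2 (208 of 365, 57.0%, 51.7 to 62.1%). Without chromosomes 16 to 19 the range of library 1 went from 20.1 to 11.3 points. Among peaks scoring at least 100 in both lists, that of library 2 went from 12.1 to 25.01 points, with chromosome 19 lowest at 44.1%. This cut rests on the score, whose median on chromosome 19 was 92.05 in library 1 and 179.485 in library 2.

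The 2 shares of a chromosome count nearly the same recurring peaks over different totals, so their order follows the numbers listed. Chromosome 17 had 245 peaks in library 1 and 282 in library 2, and shares of 73.5% and 62.8%. Chromosome 12 went from 251 to 209 peaks, with 55.8% and 66.5%, and chromosome 3 from 283 to 247, with 53.4% and 60.7%. Over the 20 chromosomes the shares of the 2 libraries had a Spearman rho of 0.03, given as a description. Counting the peaks of both lists together, chromosome 17 had the highest share (67.7%) and X the lowest (54.6%). X also had the narrowest peaks by the median, 698 bp in library 1 and 811 bp in library 2. The Y chromosome held 1 peak in each list, and the 2 touched each other.

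**Figure D4:**
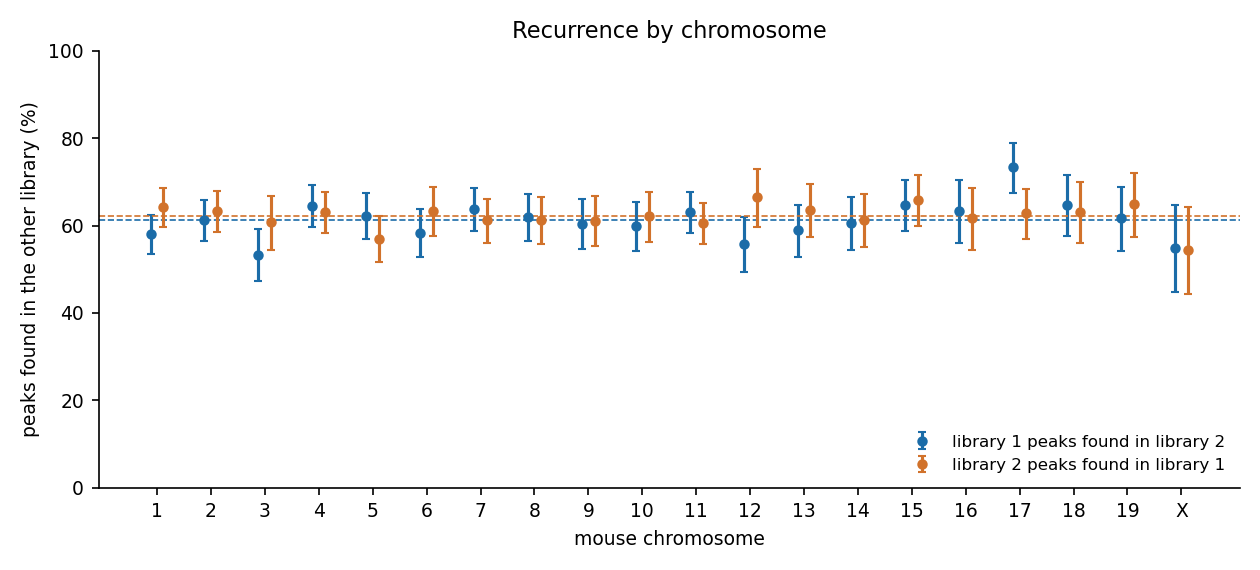
Share of peaks found in the other library (y axis, %) for each mouse chromosome with at least 100 peaks per list, library 1 and library 2 side by side, with exact 95% binomial intervals; dashed lines mark the whole lists (61.3% and 62.2%). Chromosome 17 of library 1 stands above its line at 73.5%, and chromosomes 3 of library 1 and 5 of library 2 stand below theirs.

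The 2 lists scored the same peaks differently on some chromosomes. Over all 3607 pairs the median log2 ratio of the scores, library 2 over library 1, was 0.14, and for chromosomes 1 to 15 it lay between -0.08 (chromosome 4) and 0.23 (chromosome 9), with 0.27 on X. On chromosomes 16, 17, 18 and 19 it was 0.29, 0.91, 0.61 and 0.48. Chromosome 17 had a median score of 99.71 in library 1 and 179.17 in library 2, and chromosome 4, for comparison, 140.94 and 142.30. The width ratio within pairs did not move with this, at 0.986 on chromosome 17 and 1.01 on chromosome 4.

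The numbers in the peak names changed over at the same chromosomes. Each peak carries a running number, and 67.7% of these numbers in library 1 and 80.3% in library 2 began with the digit 1. No number in either list lay between 5000 and 10000, though they ran up to 13680 and 15070. Names recurred within a list, on 1946 of 5957 peaks in library 1 and 2228 of 5862 in library 2. On chromosomes 17 and 18 every number was under 10000 in library 1 (3676 to 4021 and 4022 to 4308) and above it in library 2 (10227 to 11281 and 10003 to 11568). On chromosome 16 all 186 peaks of library 1 were under 10000, and 134 of 193 in library 2 were not. On chromosome 19 it was 29 of 183 in library 1 and 174 of 174 in library 2. The other chromosomes had numbers on the same side of 10000 in both lists.

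Score ratios followed this numbering also within chromosomes. The 482 pairs numbered under 10000 in library 1 and not in library 2 had a median log2 score ratio of 0.70 (SD 0.95), and 76.3% scored higher in library 2. Pairs on the same side had 0.06 (1735 pairs numbered 10000 or more, SD 0.65) and 0.11 (1390 pairs under 10000, SD 0.65). On chromosome 16 the ratio was 0.46 for 87 pairs that differed in numbering and 0.03 for 30 pairs that did not. On chromosome 19 it was 0.63 for 96 pairs that differed and -0.17 for 15 that did not. Scores were also less alike where numbering differed: Pearson r of log scores was 0.42 over those 482 pairs, against 0.72 and 0.73 over the other classes, and 0.73 over the 3080 pairs outside chromosomes 16 to 19. These ratios describe the score column and are no measure of binding, and no source used here states how numbers and scores were assigned. Shares of recurring peaks by position alone do not use the score; without chromosomes 16 to 19 they were 60.5% and 62.1%.

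**Figure D5:**
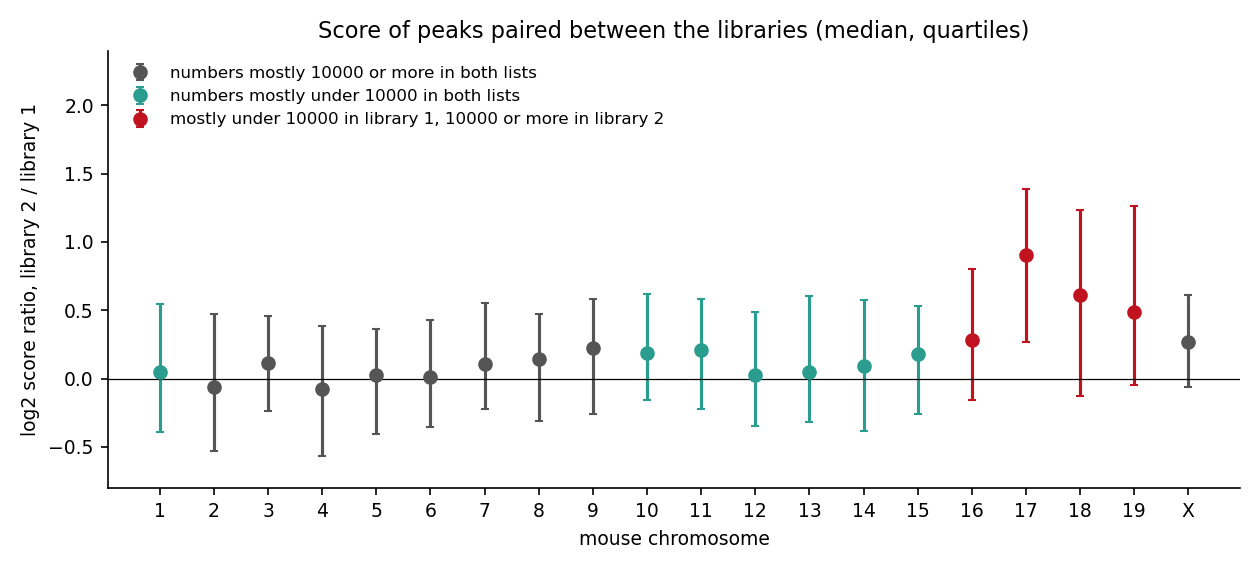
Median log2 ratio of the authors' score, library 2 over library 1 (y axis), of one-to-one peak pairs on each mouse chromosome (x axis), with quartiles as bars. Colours give the side of 10000 on which most name numbers fall in the 2 lists. Chromosomes 16 to 19, where the lists differ, have medians of 0.29 to 0.91, and chromosomes 1 to 15 stay between -0.08 and 0.23. X, numbered on the same side in both lists, has 0.27, close to the 0.29 of chromosome 16.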

How the data were processed

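HA-dCas9 ChIP-seq peak lists of 10 of the 16 mouse and human samples with a list were read, 2 of them for the comparison. Bowtie and the build mm9 are named in the submitters' processing notes. The deposited peak names point to the caller MACS, and no version, control or threshold is stated for it. The list of library 2 is named as filtered and that of library 1 is not, and the filter is not described. The score of each peak is the authors'; its unit and normalization are not stated. Lists are per sample. Starts were read as 0-based and are printed 1-based.

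Recurrence, widths, gaps between peak edges and nearest distances were computed in Python 3.11.15 with pandas 2.3.3, numpy 2.4.6 and scipy 1.17.1; the overlap code was checked on simulated data. Shares have exact Clopper-Pearson 95% intervals and differences Newcombe intervals. No test was made. Named peaks follow a rule: the position shared with Nanog-sg2, the 3 best-scoring pairs, and per library the 5 strongest and 2 farthest peaks found alone, the 2 widest recurring and 2 widest alone, the highest-scoring peak that touches most of the other list, and the longest run. The libraries, comparisons and rules were chosen with earlier results of these data known. Numbering of names was examined after seeing the data. No genome or annotation of mm9 was used here, so genes near peaks and sequences are not given.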

Additional observations from a re-analysis of the deposited data

How the results depend on the processing

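Of 45 alternative values, 23 moved beyond the interval or spread of the value reported and 22 did not; no value whose interval excluded 0 changed sign. With 50% of both peaks shared, 57.2% of library 1 and 58.2% of library 2 peaks recurred, and the width difference was 38.2 and -2.49 points. With centres within 200 bp recurrence was 50.9% and 51.7%, the width difference 22.1 and -15.6 points and the spacing difference 2.11 and -9.18 points. With scores of at least 100 in both lists, recurrence was 69.4% of 3337 and 58.1% of 3987 peaks (mean 3662 per library), the width difference 35.0 and -9.58 points, and the chromosome range of library 2 25.01 points (chromosome 13 highest, 19 lowest). Within score groups the width difference was 27.3 and -11.5 points (25.8 and -10.2 without chromosomes 16 to 19) and the spacing difference of library 1 6.61 points; within width groups the latter was 0.10 points. Without chromosomes 16 to 19, chosen after seeing the data, the chromosome range of library 1 was 11.3 points. The sign of the width difference in library 2 thus depends on the rule, and its interval at 1 bp includes 0. Without replicate 1 or 2 the number of peaks is 5862 or 5957. With 2 libraries these 2 values lie within 1 SD of the mean whatever the data. They are among the 22 and are no sign of stability. No paired analysis was possible because both libraries belong to 1 group. Depth is unknown, so peaks found in 1 library cannot be read as absent binding in the other.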
